A study of Mus musculus with 6 samples.

Results

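The Dlk1-Dio3 region of mouse chromosome 12 is an imprinted gene domain, and the genes described here are those that lie from Dlk1 through Dio3, both included, by the positions of the RefSeq annotation (GRCm38.p6). Of 103 annotated genes there, 48 were read by a probe set (the group of array probes that yields 1 value) that names a single gene, out of 19938 such genes on the array. They were 40 microRNA genes, 3 small nucleolar RNA (snoRNA) genes, the long noncoding RNA genes Meg3 and Rian, and the 3 protein-coding genes Dlk1, Rtl1 and Dio3. The remaining 55, among them the long noncoding gene Mirg, had no such probe set. Members were chosen by position, and the only measured values in the rule are the mean levels by which 1 of several probe sets of a gene is selected. Each of the 48 had 1 probe set, so that step decided nothing. The snoRNA gene AF357341 was matched by its symbol alone. The region was taken up with results of these arrays already known, among them the fall of Mir380.

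The arrays compared 2 populations of HM1 cells, an embryonic stem (ES) cell line. Both received a puromycin-resistance plasmid, pCAGIP.puro, which was empty in the control group (3 arrays) and carried mouse Prmt6 in the overexpression group (3 arrays). Both were grown with 15% serum and LIF, the cytokine that supports self-renewal of mouse ES cells, and were selected in puromycin for 3 days, so every sample is a selected transfected population of 1 line. The titles number the samples of each group 1 to 3 without saying whether they were separate cultures, so the p-values measure no more than the spread among these 6 samples, and that spread may be technical. Values are log2 signals after robust multi-array averaging, and 1 unit is a doubling. Because probe sets differ in how strongly they bind, levels are compared between samples and not between genes.

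In this domain the chromosome inherited from the father expresses Dlk1, Rtl1 and Dio3, while the chromosome inherited from the mother expresses the noncoding RNAs. DNA methylation of a control region between Dlk1 and Meg3 keeps the noncoding genes silent on the paternal copy. Meg3, the antisense RNA of Rtl1, Rian and Mirg are read in the same direction, and the microRNAs and snoRNAs are cut from these long transcripts. In mouse ES cells and induced pluripotent cells, activity of Meg3 and its neighbours is known as a mark of full developmental potential. The arrays read total RNA from both chromosomes, so the parental alleles were not told apart. A probe set named for a microRNA gene reads labelled RNA that matches its hairpin, so the host transcript and the hairpin cannot be told apart in these values, and the mature microRNA was not measured separately.

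The microRNA genes that passed the test with the largest changes were Mir380, Mir300, Mir382, Mir377, Mir541, Mir487b, Mir381, Mir154, Mir329 and Mir411, all of them from the cluster that begins at Mir379. Their mature sequences, from RefSeq (GRCm38.p6, plus strand of chromosome 12), are shown because they are the products of the genes that fell most. They run 5′ to 3′, and capitals mark the seed, bases 2 to 8, with which a microRNA recognizes its targets. For Mir487b the sequences used held only the 5p arm.
miR-380-5p: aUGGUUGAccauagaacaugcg
miR-380-3p: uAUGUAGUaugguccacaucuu
miR-300-5p: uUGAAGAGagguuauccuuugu
miR-300-3p: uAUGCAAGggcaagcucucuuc
miR-382-5p: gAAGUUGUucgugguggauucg
miR-382-3p: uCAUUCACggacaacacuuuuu
miR-377-5p: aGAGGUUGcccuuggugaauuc
miR-377-3p: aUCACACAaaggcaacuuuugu
miR-541-5p: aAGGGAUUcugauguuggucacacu
miR-541-3p: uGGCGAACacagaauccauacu
miR-487b-5p: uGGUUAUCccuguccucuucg
miR-381-5p: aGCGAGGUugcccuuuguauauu
miR-381-3p: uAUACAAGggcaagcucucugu
miR-154-5p: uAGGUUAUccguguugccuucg
miR-154-3p: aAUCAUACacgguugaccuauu
miR-329-5p: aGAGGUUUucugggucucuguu
miR-329-3p: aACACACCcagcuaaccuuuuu
miR-411-5p: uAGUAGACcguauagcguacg
miR-411-3p: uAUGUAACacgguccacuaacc

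By the sequences listed, the shown microRNAs did not form a seed family. The 40 measured microRNA genes had 76 mature sequences in the annotation with 74 different seeds, and only 2 of these seeds were shared between genes of the region. For Mir376c, Mir487b, Mir539 and Mir485 the other arm was missing from the sequences used, so its seed was not counted. Mir379 and Mir411 shared AUGUAAC in their 3p arms, and Mir376c and Mir376b shared UGGAUAU in their 5p arms. Probe sets of related hairpins may read each other's RNA, which leaves their separate values uncertain. This limit is not confined to shared seeds: the printed 3p arms of Mir300 and Mir381 are alike over most of their length.

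With the Prmt6 plasmid, noncoding genes of the region fell together while none of its 3 protein-coding genes passed as a fall. Mean levels were 5.335 for Rtl1 and 5.1 for Dio3, against medians of 5.62 over the noncoding genes and 5.87 over all genes. Without detection calls, a fall of Rtl1 or Dio3 from such levels may not be seen. Of the 48 genes, 26 fell and 1 rose at an adjusted p under 0.05 (limma, Benjamini-Hochberg over 19938 genes), where 3.25% of all genes fell and 7.05% rose, 10.3% in all. All 26 falls were among the 45 noncoding genes, and the rise was that of Dio3. In 34 of the noncoding genes the 3 overexpression arrays all lay below the 3 control arrays, as they did in 12.7% of all genes. The difference lay below 0 in 44 of the 45, Mir299a being the exception. The median difference over the 48 genes was -0.41 on the log2 scale, against 0 over all genes. The falls that passed ran from 1.29-fold (AF357341) to 2.65-fold (Mir380). The region held 17 of the 134 genes on the array that fell at least 1.5-fold and passed, and 3 of the 27 that fell at least 2-fold. The number of falls was 17 without control replicate 1, 2 or 3 and 16 without overexpression replicate 2, and the median difference lay between -0.46 and -0.35 without any 1 array.

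**Figure D1:**
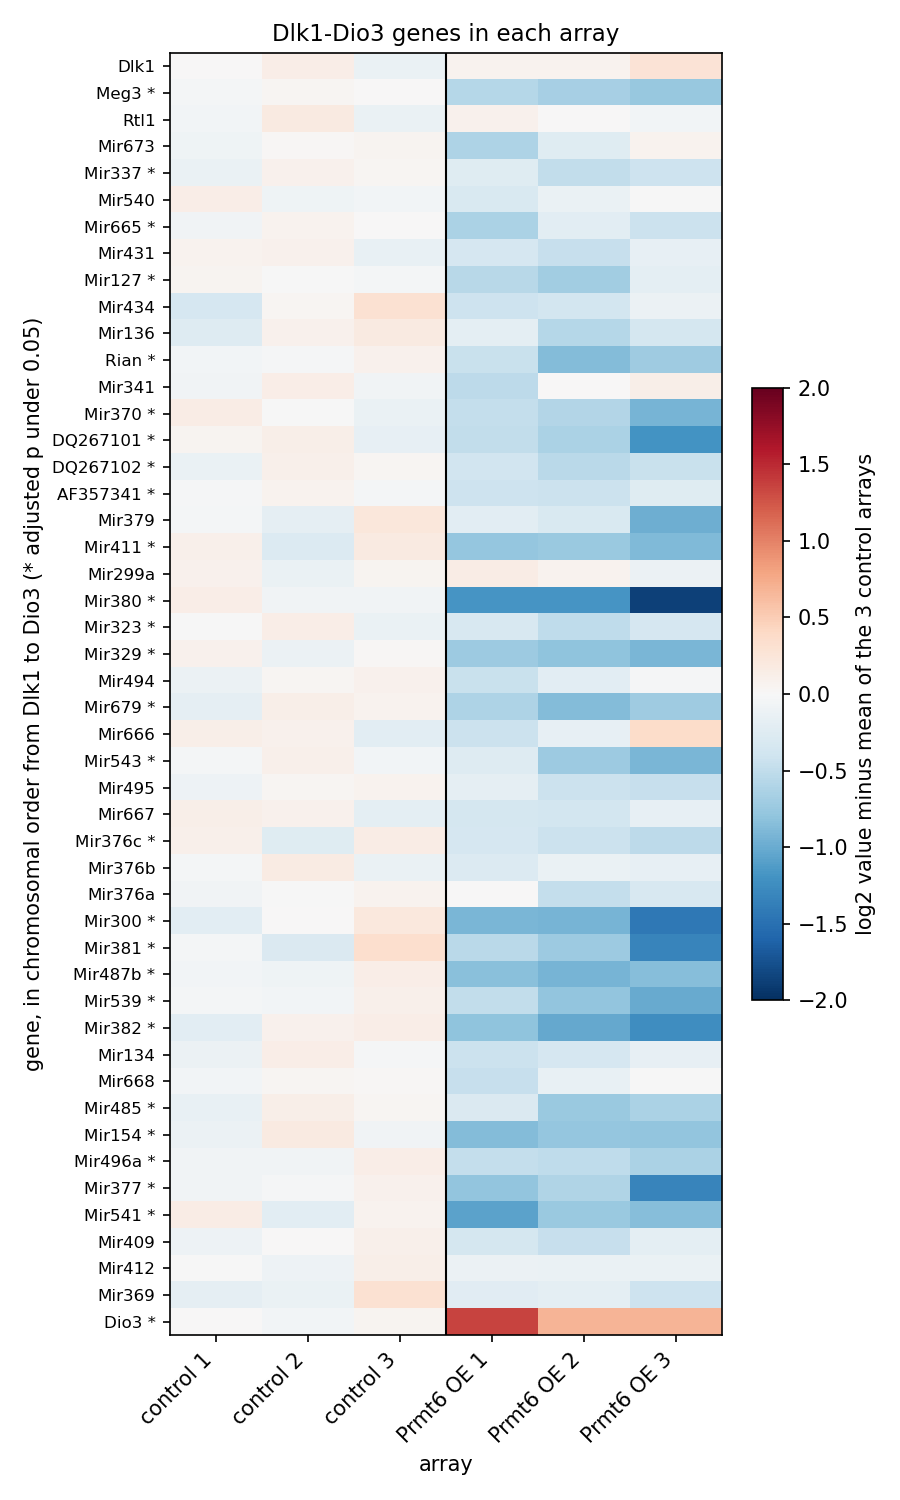
Each row is 1 of the 48 genes in chromosomal order and each column 1 array, coloured by its log2 value minus the mean of the 3 control arrays, with asterisks at genes past the threshold. The rows from Meg3 to Mir369 are mostly blue in all 3 overexpression arrays, Dlk1 and Rtl1 are pale, and Dio3 is red.

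The label was checked on a list of 14 ES cell markers, each of which had a probe set. Pou5f1, a core pluripotency factor, was at 11.14, 11.20 and 11.06 in control and at 11.23, 11.32 and 11.41 in overexpression and did not pass (adjusted p = 0.190). Of the list 4 genes fell, Fbxo15 (-0.77), Tdgf1 (-0.35), Nanog (-0.34) and Sox2 (-0.29), 2 rose, Tcl1 (0.74) and Tfcp2l1 (0.37), and the median difference was -0.0017. Without any 1 control array only Fbxo15 fell, and the Sox2 call ended without each array in turn (adjusted p up to 0.163). The summed signal of the 14 markers, on the linear scale in arbitrary units, was 22845 to 23834 in control and 22400 to 22517 in overexpression. Prmt6 itself rose from 6.84, 6.58 and 7.12 in control to 7.32, 7.40 and 7.33 (1.42-fold, adjusted p = 0.0406), a call that ended without any 1 array except control replicate 3 (adjusted p from 0.0788 to 0.119). In the arrays where the noncoding genes fell, 10 of 19 fibroblast markers rose, led by Acta2 (4.53), Tagln (3.29), Vim (1.62) and Lox (1.51), while Thy1 (0.043), Lum (0.063) and Fap (-0.023) did not pass. The summed signal of the 19 fibroblast markers was 3388 to 3485 in control and 11423 to 12334 in overexpression. Acta2, Tagln, Vim and Fn1 had the highest signals in overexpression and weigh most in that sum. The median difference over the 19 was 0.36, and 9 of them did not pass. With single arrays left out, 7 to 9 of the 19 rose. Of 12 extraembryonic endoderm markers, 6 rose: Col4a1 (1.49), Cubn (0.94), Dab2 (0.77), Sox17 (0.58), Lamb1 (0.53) and Gata6 (0.43). Gata4, Sox7, Foxa2, Afp, Ttr and Amn did not pass. With single arrays left out, 5 to 7 of the 12 rose. The summed signals of the 12 were 856 to 891 in control and 1298 to 1383 in overexpression. Lamb1 and Col4a1 had the highest signals and weigh most in these sums. Beside these marker counts, 3.25% of all genes fell and 7.05% rose. No marker can be read as absent, since the values carry no detection call. The part of these cell type markers in the changes of the region was not tested. In such bulk RNA, fewer cells of a type and less RNA per cell cannot be told apart.

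Among the genes read from the paternal chromosome, Dlk1 encodes a membrane protein with EGF-like repeats that acts on Notch signalling and holds back the maturation of fat cell precursors. It was at 7.00, 7.13 and 6.86 in control and at 7.07, 7.07 and 7.27 in overexpression. The groups overlapped, and the difference of 0.14 ± 0.096 (log2, SE) did not pass (adjusted p = 0.429). Rtl1, a gene derived from a retrotransposon and needed for the capillaries of the placenta, was at 5.28, 5.51 and 5.20 in control and at 5.41, 5.33 and 5.28 in overexpression. Its difference was 0.01 ± 0.095 (adjusted p = 0.967) and changed sign with the arrays used, from -0.055 without control replicate 3 upward.

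Dio3, the deiodinase that inactivates thyroid hormone, was the only gene of the 48 to rise. It lay at 4.65, 4.59 and 4.70 in control and at 6.00, 5.33 and 5.33 in overexpression, so the groups were apart, with overexpression replicate 1 above the other two. It rose 1.87-fold, from 4.65 ± 0.055 to 5.55 ± 0.39 (log2, SD, n = 3), with a difference of 0.91 ± 0.17 (SE, adjusted p = 0.0109). Without overexpression replicate 1 the difference was 0.68. The call held without each array in turn (adjusted p from 0.0029 to 0.0407). Dio3 stands apart from the rest of the domain, 827 kb from the start of Dlk1, whereas the last measured microRNA gene, Mir369, lies at 291 kb.

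**Figure D2:**
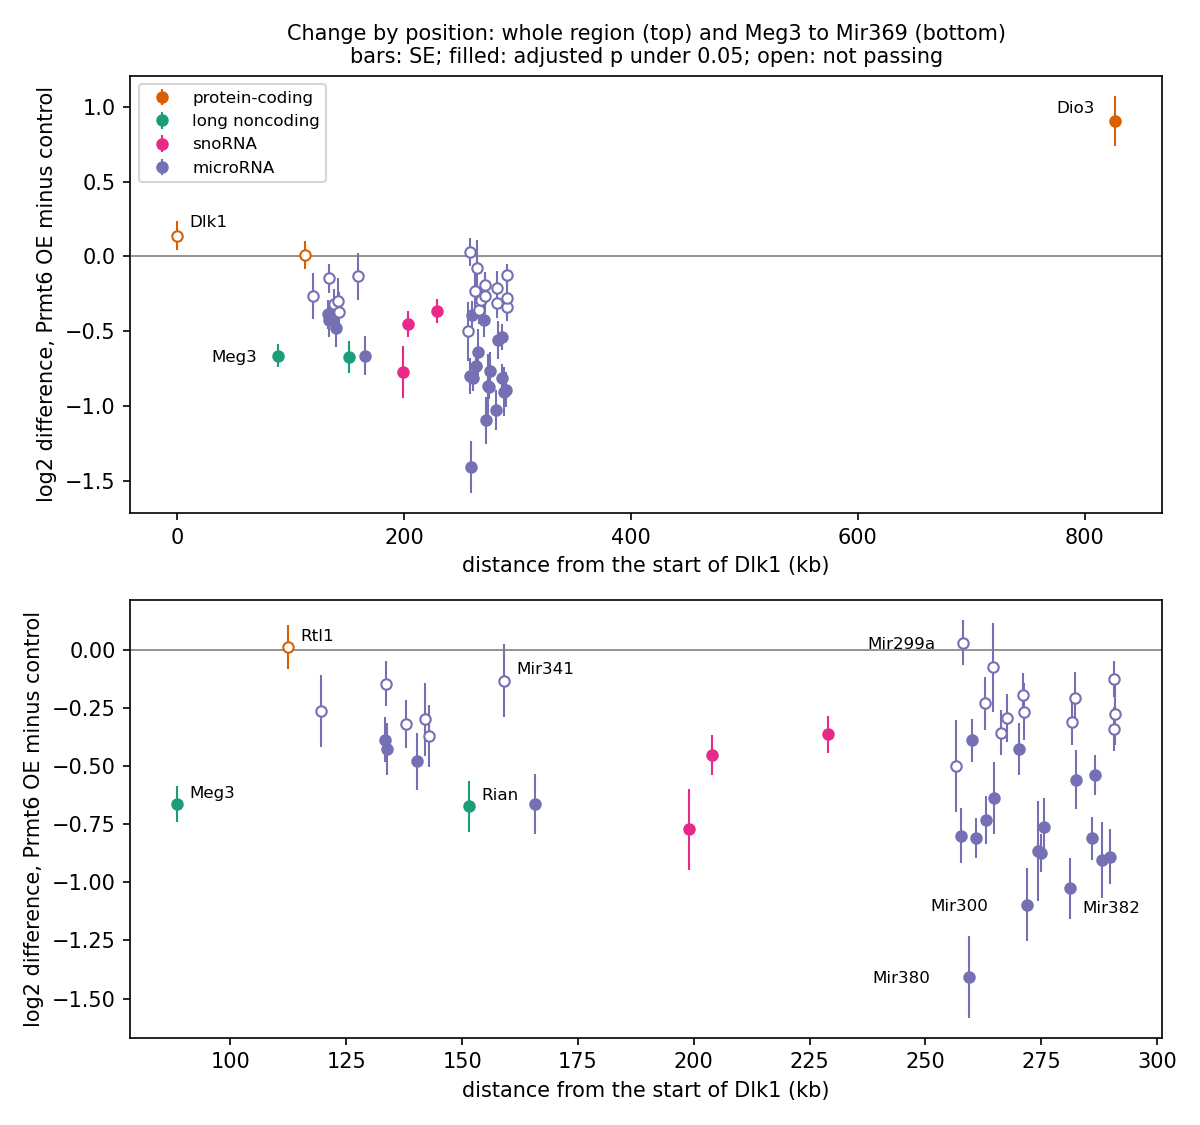
The log2 difference of overexpression minus control (points, with SE) is plotted against the distance of each gene from the start of Dlk1 in kb, for the whole region above and from Meg3 to Mir369 below. Filled points passed the threshold, and the 3 protein-coding genes lie at or above 0 while the noncoding genes lie below it except Mir299a at 0.03.

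Meg3 is the long noncoding RNA at the start of the maternally expressed transcripts, 88.5 kb from the start of Dlk1. It was at 9.79, 9.87 and 9.85 in control and at 9.27, 9.17 and 9.08 in overexpression, with a tight spread in both groups and no overlap. It fell 1.58-fold (-0.66 ± 0.077, adjusted p = 0.000985). Rian, which hosts a large array of snoRNAs, was at 7.34, 7.38 and 7.48 in control and at 6.95, 6.54 and 6.69 in overexpression. It fell 1.59-fold (-0.67 ± 0.11, adjusted p = 0.00565). The calls of Meg3 and Rian held without each array in turn, with adjusted p up to 0.00677 and 0.0267.

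The promoter of Meg3 is shown because Meg3 opens the transcripts that fell. RefSeq (GRCm38.p6) places 250 bases before and 50 after its start at chr12:109540746-109541045 on the plus strand. Capitals mark the matches to TGACGTCA, the cyclic AMP response element, and to TGCCGC or its reverse complement, the hexamer read by the imprinting factor ZFP57 when it is methylated.
Meg3 promoter: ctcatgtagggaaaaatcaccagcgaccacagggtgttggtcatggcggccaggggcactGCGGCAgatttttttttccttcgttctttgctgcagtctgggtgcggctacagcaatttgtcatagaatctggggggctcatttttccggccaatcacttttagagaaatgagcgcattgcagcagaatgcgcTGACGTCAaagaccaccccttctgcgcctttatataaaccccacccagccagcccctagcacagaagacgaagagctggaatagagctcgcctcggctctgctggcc
Both strands were searched, and each motif matched 1 time, with no overlap between them. TGACGTCA was present in 1.79% and TGCCGC in 11.6% of 32851 annotated mouse promoters of this length. The promoter held 13 CG pairs, against a median of 7 over all promoters. A second annotated Meg3 start held 1 CG pair and neither motif. The window at the annotated start of Dio3 held 25 CG pairs, that of Dlk1 9, that of Mirg 10 and that of Rian 0. None of these held either motif. The Dlk1 window begins downstream of the gene start from which distances were counted. The Mirg window lies inside the cluster from Mir379 and covers sequences of miR-668 and miR-485. Whether these windows are active promoters was not tested. The motif matches describe the letters of the windows, and no binding or methylation was measured here.

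The 3 measured snoRNA genes all lie downstream of the start of Rian, and all of them fell, beside 3.25% of all genes. SnoRNAs of this kind are cut from introns and carry the C and D boxes that bind the methylation complex for other RNAs, although those of this region have no known target in ribosomal RNA. DQ267102 was at 8.55, 8.79 and 8.73 in control and at 8.31, 8.15 and 8.25 in overexpression (1.37-fold lower, adjusted p = 0.0131). DQ267101 was at 6.09, 6.14 and 5.86 in control and at 5.54, 5.40 and 4.83 in overexpression (1.71-fold lower, adjusted p = 0.026), with overexpression replicate 3 the lowest. AF357341 was at 4.80, 4.89 and 4.79 in control and at 4.41, 4.40 and 4.58 in overexpression (1.29-fold lower, adjusted p = 0.0227). No snoRNA gene overlapped between the groups, while 12.7% of all genes lay lower in overexpression without overlap. Each call ended when single arrays were left out: that of DQ267102 without the control arrays 2 or 3 or the overexpression array 2, that of DQ267101 without the control arrays 1 or 2 or the overexpression array 2, and that of AF357341 without any array other than overexpression replicate 3. Adjusted p then reached 0.057, 0.087 and 0.0931 at most.

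The microRNA genes between Meg3 and Rian include Mir431, Mir127, Mir434 and Mir136, which lie opposite the coding sequence of Rtl1, where miR-127 and miR-136 are known to cut the Rtl1 message. From Meg3 to Mir136 there were 9 noncoding genes over 54 kb, of which 4 fell (Meg3, Mir337, Mir665 and Mir127). All 9 differences lay below 0 and the median was -0.37. Over all genes 3.25% fell. Mir127 was at 6.19, 6.13 and 6.10 in control and at 5.58, 5.45 and 5.95 in overexpression (1.39-fold lower, adjusted p = 0.0433). Mir337 (1.31-fold, adjusted p = 0.0375) and Mir665 (1.34-fold, adjusted p = 0.0455) fell as well. These 3 calls were near the threshold and ended without 4 or 5 of the 6 arrays, with adjusted p up to 0.139. Mir136 was at -0.37 ± 0.13 (adjusted p = 0.127), Mir431 at -0.32 ± 0.10 (0.0927) and Mir434 at -0.30 ± 0.16 (0.293) without passing. The fit found no difference that passed for Rtl1 on the opposite strand.

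Of the 6 genes from Rian to the last measured snoRNA gene, 5 fell, beside 3.25% of all genes, with a median difference of -0.56. Besides Rian and the snoRNA genes they were Mir370, which was at 6.10, 5.94 and 5.82 in control and at 5.48, 5.37 and 5.02 in overexpression. Mir370 fell 1.58-fold (adjusted p = 0.0131), a call that ended without control replicate 1 (0.0562). Mir341, the other microRNA gene there, was at 7.97, 8.18 and 7.97 in control and at 7.52, 8.04 and 8.16 in overexpression, and its -0.13 ± 0.16 did not pass (adjusted p = 0.674). Only overexpression replicate 1 of Mir341 lay below all control arrays.

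The dense cluster from Mir379 to Mir369 held 30 measured microRNA genes within 34 kb, and the region's largest falls lay in it. There, 17 genes fell, none rose, 13 did not pass, and the median difference was -0.52. Over all genes 3.25% fell and 7.05% rose. Mir380, a microRNA reported to hold down p53 in stem cells and neuroblastoma, was at 6.13, 5.94 and 5.94 in control and at 4.82, 4.83 and 4.14 in overexpression. It fell 2.65-fold (-1.41 ± 0.18, adjusted p = 0.00153), with overexpression replicate 3 below the other two. Without that replicate the difference was -1.18.

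Mir300 was at 5.93, 6.16 and 6.35 in control and at 5.23, 5.21 and 4.71 in overexpression, a fall of 2.14-fold (adjusted p = 0.00318). Mir382 was at 6.52, 6.82 and 6.87 in control and at 5.93, 5.71 and 5.49 in overexpression, a fall of 2.04-fold (adjusted p = 0.00178). In both genes the groups lay far apart against the spread within them. Mir487b was at 6.42, 6.39 and 6.61 in control and at 5.63, 5.55 and 5.62 in overexpression. It fell 1.83-fold (-0.87 ± 0.082) and had the smallest adjusted p of the region (0.000293). Its overexpression arrays lay close together, and all of them below the control arrays.

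Mir329 and Mir381 belong with Mir134 to the members known for shaping dendrites in neurons. Mir329 was at 7.10, 6.89 and 7.04 in control and at 6.29, 6.21 and 6.10 in overexpression (1.75-fold lower, adjusted p = 0.000619). Mir381 was at 5.05, 4.79 and 5.42 in control and at 4.54, 4.36 and 3.76 in overexpression (1.82-fold lower, adjusted p = 0.039). Mir134 was at 7.21, 7.46 and 7.30 in control and at 6.89, 6.98 and 7.16 in overexpression. The arrays of Mir134 did not overlap, but its -0.31 ± 0.099 did not pass (adjusted p = 0.0868). For Mir381 the call was lost when control replicate 1 or 3, or overexpression replicate 2 or 3, was left out (adjusted p up to 0.119).

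Mir154 was at 4.96, 5.25 and 5.00 in control and at 4.20, 4.30 and 4.28 in overexpression (1.75-fold lower, adjusted p = 0.000908). Mir541 was at 5.24, 4.88 and 5.17 in control and at 4.03, 4.35 and 4.24 in overexpression (1.85-fold lower, adjusted p = 0.00213). Mir377 was at 6.16, 6.20 and 6.32 in control and at 5.44, 5.62 and 4.91 in overexpression (1.87-fold lower, adjusted p = 0.00987). The groups were apart in each of these genes, and in Mir377 overexpression replicate 3 was the lowest. Mir411 was at 5.62, 5.24 and 5.69 in control and at 4.74, 4.77 and 4.64 in overexpression (1.74-fold lower, adjusted p = 0.00375). Mir379, which shares a seed with Mir411, was at 3.85, 3.71 and 4.12 in control and at 3.68, 3.59 and 2.91 in overexpression, and its -0.50 ± 0.20 did not pass (adjusted p = 0.162). Mir379 lay at a low signal and its overexpression arrays spread widely.

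Smaller falls in the cluster were those of Mir539 (1.70-fold), Mir679 (1.66-fold), Mir543 (1.55-fold), Mir485 (1.47-fold), Mir496a (1.45-fold), Mir376c (1.34-fold) and Mir323 (1.31-fold), with adjusted p from 0.00298 (Mir679) to 0.0486 (Mir376c). The calls of Mir485, Mir543, Mir323 and Mir376c ended without 4 or 5 of the 6 arrays, with adjusted p up to 0.163. Mir495 (-0.36 ± 0.095, adjusted p = 0.0508) and Mir409 (-0.34 ± 0.094, 0.057) lay just short of the threshold. Without overexpression replicate 1 Mir495 passed (0.0201), and without overexpression replicate 3 Mir409 (0.0337) and Mir431 (0.0489) passed. Mir376a, with the lowest mean of the 48 genes, was at 2.32, 2.38 and 2.45 in control and at 2.39, 1.90 and 2.06 in overexpression, and passed only without overexpression replicate 1 (0.0305) and with array weights (0.0499). Mir299a was at 4.77, 4.55 and 4.74 in control and at 4.83, 4.75 and 4.57 in overexpression, and its groups overlapped.

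**Figure D3:**
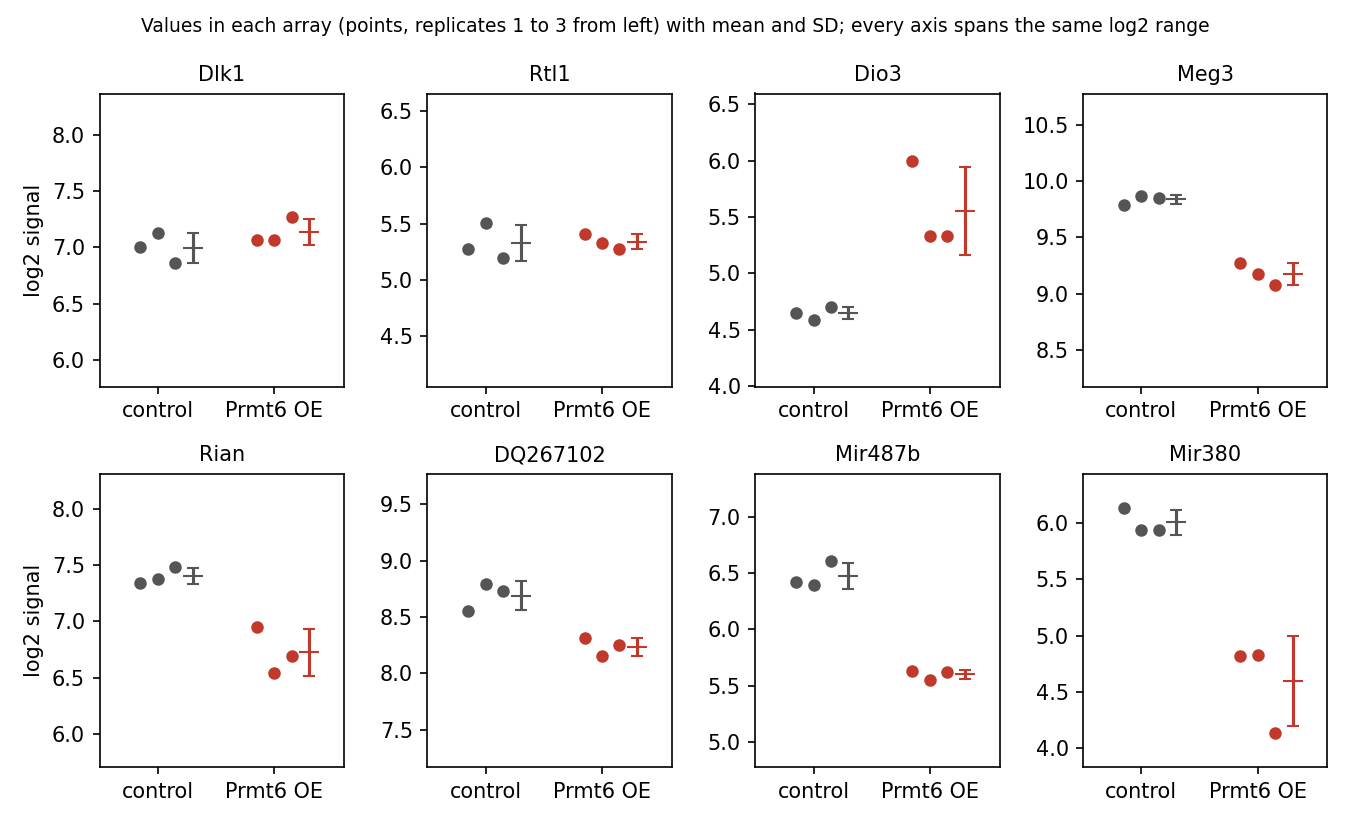
Log2 signals of 8 genes in each array (points, replicates 1 to 3 from left) with the group mean and SD, on axes that span the same log2 range. Dlk1 and Rtl1 overlap between the groups, Dio3 lies higher in overexpression, and Meg3, Rian, DQ267102, Mir487b and Mir380 lie lower in all 3 overexpression arrays.

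The 26 falls lay along the whole run of noncoding genes, in all 3 stretches described above. Across the 45 noncoding genes, the difference was only weakly related to the distance from Dlk1 (Pearson's r = -0.20, Spearman's rho = -0.15) and to the mean level (r = -0.081, rho = -0.020). These are descriptions across genes that share arrays and host transcripts, and the genes are not independent replicates. Each overexpression array showed the pattern: 43, 43 and 42 of the 45 genes lay below their control mean in overexpression replicates 1, 2 and 3, by a median of 0.45, 0.50 and 0.44. Of the 11 noncoding genes whose groups overlapped, 8 were highest in overexpression replicate 3 among the overexpression arrays. These 11 were picked by the same values, so this count describes them alone. Over all 45 genes, overexpression replicate 1 was the lowest of the overexpression arrays in 12, replicate 2 in 15 and replicate 3 in 18.

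Base composition varied among the microRNA genes, and its relation to the change differed between the overexpression arrays. Hairpin GC content ran from 29.1% (Mir376c) to 62.0% (Mir667) over the 39 microRNA genes of the region with a hairpin sequence in RefSeq. Against it, the deviation from the control mean had an r of -0.024 in overexpression replicate 1, 0.27 in replicate 2 and 0.43 in replicate 3 (n = 39). Over 219 microRNA genes elsewhere the r was -0.28, 0.038 and 0.16. These are again descriptions across genes that share arrays. Of the 19 genes with a GC content under the region's median of 45.1%, 11 fell, with a median difference of -0.54. Of the 20 at or over it, 10 fell, with a median difference of -0.36. Over the GC-rich genes overexpression replicate 3 lay a median of -0.19 from the control mean, against -0.79 over the GC-poor ones, while replicate 1 was at -0.45 in both. The part of GC content in these values was not tested beyond this split.

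Other microRNA genes were read on the same arrays. Outside the region, 260 measured genes carried a microRNA symbol, of which 4 were long host genes (Mir100hg, Mir17hg, Mir670hg and Mir99ahg), and 16 of the 260 fell, Mir17hg among them. Of the 256 microRNA genes proper, 15 fell (5.86%), none rose and 241 did not pass, and their median difference was -0.053, against 21 falls among 40 (52.5%) and a median of -0.41 within the region. The 15 became 7 without control replicate 1, 9 without control replicate 2 or 3 and 10 without overexpression replicate 2. At a GC content under 45.1%, 6 of 78 of them fell with a median difference of -0.012, and at or over it 7 of 141 fell with a median of -0.077. The median level was 4.56 over the 256 genes and 5.56 over the region's microRNA genes. Over the 260 genes the difference was related to the mean level (Pearson's r = -0.24, Spearman's rho = -0.29), brighter genes lying lower. Level was not matched in this comparison.

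Falls of neighbouring microRNA genes were not limited to the region. The Mir302 cluster on chromosome 3 is a set of microRNA genes known for its high activity in pluripotent cells. It was singled out after its values were seen, so its count is no test. All 5 of its genes fell, with no overlap between the groups. Over all genes, 3.25% fell and 12.7% lay lower in overexpression without overlap. Mir302d fell 1.84-fold (-0.88 ± 0.16, adjusted p = 0.0111), Mir367 1.76-fold (-0.81 ± 0.21, 0.0469), Mir302c 1.72-fold (-0.78 ± 0.10, 0.00171), Mir302a 1.66-fold (-0.73 ± 0.15, 0.0157) and Mir302b by 0.59 on the log2 scale (SE 0.11, 0.0114). Of the 5 calls, 3 remained without control replicate 1 or 3 or without overexpression replicate 1, and 4 without control replicate 2. Elsewhere Mir363 (-0.92 ± 0.20, adjusted p = 0.0229) and Mir301b (-0.83 ± 0.094, 0.000905) fell by similar amounts, and the Mir363 call ended without any 1 control array or overexpression replicate 2 (up to 0.0756).

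The summed signal of the region's microRNA genes was 2679 to 2819 in control and 1917 to 2105 in overexpression, in arbitrary linear units.

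**Figure D4:**
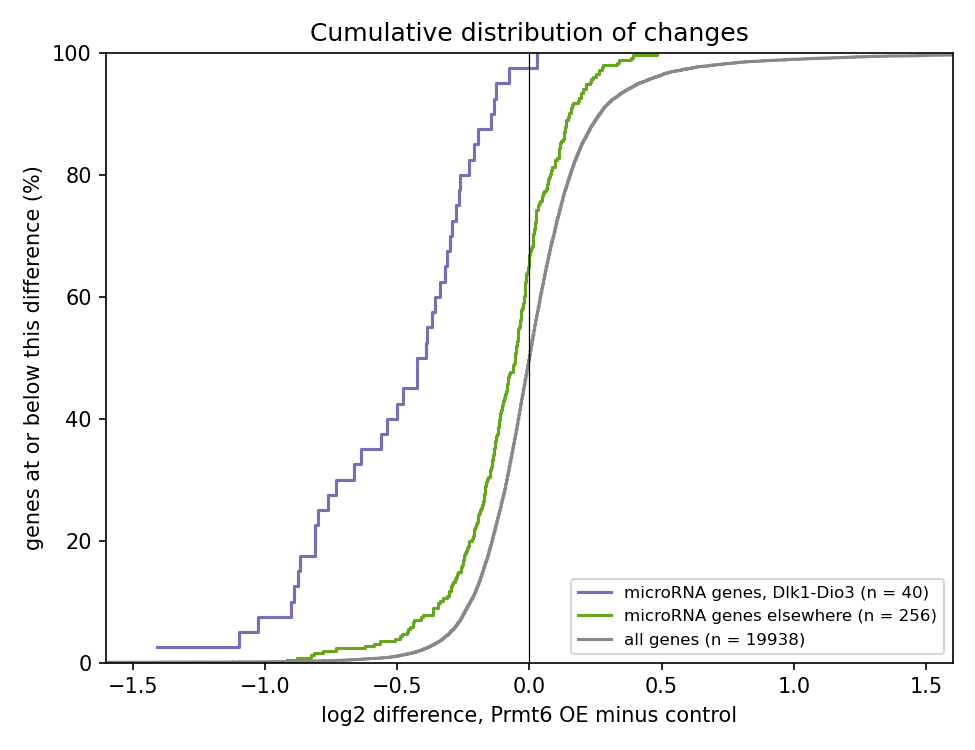
Cumulative share of genes (in percent) at or below each log2 difference of overexpression minus control, for 40 microRNA genes of the region, 256 microRNA genes elsewhere (host genes left out) and 19938 genes in all. The region's curve lies to the left, with a median of -0.41, against -0.053 for microRNA genes elsewhere and 0 for all genes.

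**Figure D5:**
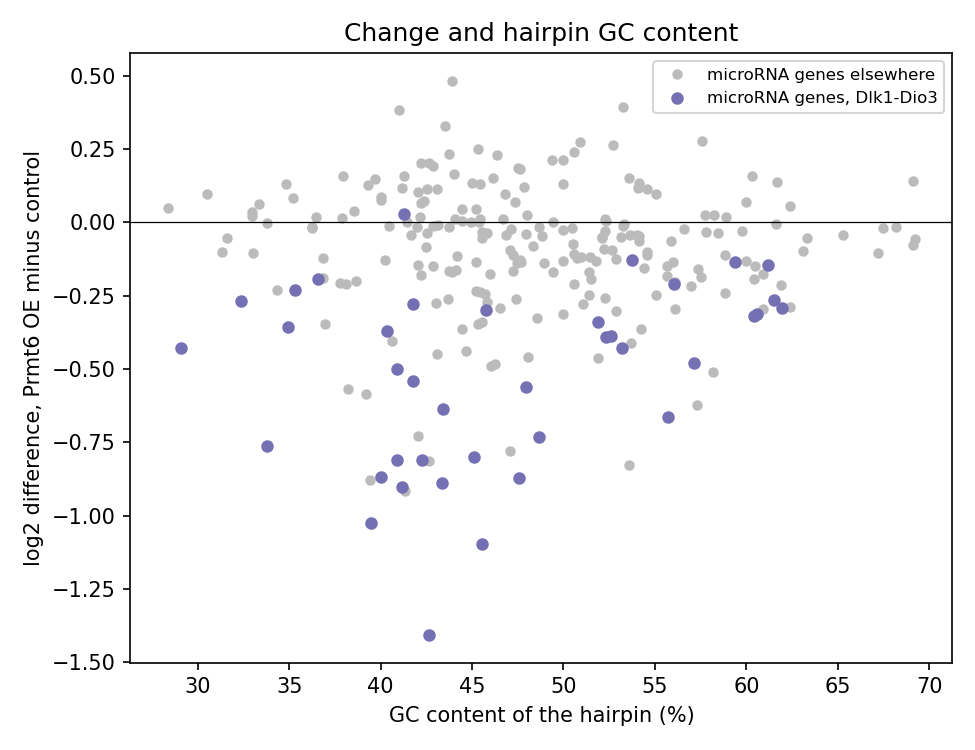
The log2 difference of overexpression minus control is plotted against hairpin GC content in percent for 39 microRNA genes of the region and 219 elsewhere. Most differences of the region's genes lie below 0 along the GC range, with the largest falls below 48% GC, while genes elsewhere scatter around a median near 0.

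The genes that flank the domain were compared in the same fit, in which 3.25% of all genes fell and 7.05% rose. The comparison took 10 measured genes on each side. On the side of Dlk1 none of the 10, which include Begain, Wdr25 and the transcription factor gene Yy1, passed at an adjusted p under 0.05 in limma. Their differences ran from -0.26 (Wdr25, adjusted p = 0.0586) to 0.15, with a median of -0.052. On the side of Dio3, 3 of 10 fell, the protein kinase gene Mok (-0.49 ± 0.07, adjusted p = 0.00288), Tecpr2 (-0.38 ± 0.083, 0.0221) and Zfp839 (-0.30 ± 0.072, 0.036), and the median was -0.045. The nearest of them to Dio3, Ppp2r5c and Dync1h1, were at 0.023 and -0.24 without passing. The Tecpr2 call ended without every array but control replicate 3 and overexpression replicate 1 (adjusted p up to 0.089), and that of Zfp839 without every array but overexpression replicate 3 (up to 0.131).

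Among factors that act on imprinting or on the DNA methylation behind it, 3 of 21 measured genes fell, none rose and 18 did not pass. Their median difference was -0.17. Over all genes, 3.25% fell and 7.05% rose. The falls were those of Dnmt3l, the cofactor of de novo methylation (-0.34 ± 0.072, adjusted p = 0.0205), Tet1, which oxidizes methylated cytosine (-0.32 ± 0.07, 0.0226), and Dnmt3b, a de novo methyltransferase (-0.30 ± 0.078, 0.0464). Zfp57, which binds methylated imprinting control regions, was at -0.17 ± 0.072 (0.190), its partner Trim28 at -0.07 ± 0.066 (0.582) and the maintenance methyltransferase Dnmt1 at -0.16 ± 0.066 (0.188) without passing. Aff3, which binds the control region of this domain, was at -0.32 ± 0.088 (0.0558). Dppa3, which protects the imprint of this domain in reprogramming, was at 0.27 ± 0.17 (0.399), and the Polycomb enzyme gene Ezh2 at -0.0067 ± 0.091 (0.976). The calls of Tet1, Dnmt3l and Dnmt3b were lost when any control array or overexpression replicate 2 was left out, and those of Tet1 and Dnmt3b also without overexpression replicate 3 (adjusted p up to 0.102, 0.0882 and 0.151).

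Of the machinery that cuts and loads microRNAs, 2 of 17 measured genes fell, none rose and 15 did not pass. Their median difference was -0.11, and the share of falls over all genes was 3.25%. Dicer1, which cuts hairpins to mature length, fell (-0.33 ± 0.08, adjusted p = 0.0336), as did the Argonaute gene Ago1 (-0.36 ± 0.087, 0.0346). Both calls were lost when any array other than overexpression replicate 1 was left out (adjusted p up to 0.128). Drosha and Dgcr8, which release hairpins from the host transcript in the nucleus, were at -0.16 ± 0.068 (0.194) and -0.05 ± 0.073 (0.743) without passing. Of the genes through which Dlk1 and Dio3 act, 1 of 11 measured genes fell, again beside 3.25% of all genes, and 10 did not pass. The fall was that of the receptor gene Notch3 (-0.46 ± 0.09, adjusted p = 0.0141). The Notch3 call was lost when control replicate 1 or 2, or overexpression replicate 2, was left out (adjusted p up to 0.0605). The other deiodinase genes Dio1 and Dio2 were at -0.09 and -0.03, and the thyroid hormone receptor genes Thra and Thrb at -0.12 and -0.073.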

How the data were processed

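Total RNA from 6 samples was read on 1 Affymetrix array each. The deposited values are log2 signals that the authors made by robust multi-array averaging (RMA), per the submitters' processing notes, and they carry 2 decimals. Because RMA brings all arrays to 1 distribution, it would take out most of a shift common to most genes. Its version is not given in the sources used here. Medians of the control arrays were 5.60 to 5.62 and those of the overexpression arrays 5.54 to 5.59. The number of arrays limits the precision.

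Probe sets were named from the platform annotation of 2016, and those with several symbols (1621) or none (12146) of 35556 were left out. Genes were placed by RefSeq (GRCm38.p6), 47 of the 48 by gene identifier. Group differences were fitted with limma 3.58.1 (R 4.3.3; lmFit, then eBayes with a constant prior, two-sided, no covariate, no filter), and p-values were adjusted by the Benjamini-Hochberg method over 19938 genes, with 0.05 as the threshold. SEs are limma's moderated ones. The procedure was tested on simulated data with independent noise in each gene, which do not cover genes that share host transcripts. Python 3.11.15 and matplotlib 3.10.9 made the figures.

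The members, lists and tests were chosen with earlier results of these data known. The rule for named genes takes every region gene that passed, the main coding and long noncoding genes, the 5 others with the largest change, the highest and lowest mean, Prmt6, and up to 4 passing genes of the neighbours and of each list. Other genes named beside them were chosen after their values were seen. The alternatives tried were the replicate number as a block, omission of each array, centring on medians, quantile normalization, filters on dim genes, other uses of the probe sets, a trended and robust prior, array weights and a threshold of 0.01.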

Additional observations from a re-analysis of the deposited data

How the results depend on the processing

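Of the 27 calls in the region, 15 held in each of the 16 other fits in which the gene was tested, those of Meg3, Rian, Dio3 and 12 microRNA genes, and 12 ended in at least 1. Of these 15, the Dio3 call ended at the stricter threshold of 0.01. The number of genes that fell, 26 by the fit described, ranged from 16 to 23 when single arrays were left out. It was 12, with 0 rises, when genes under the median level were left out, which removed 29 of the 48 genes with Dio3 among them, and 14, with 0 rises (Dio3 at adjusted p = 0.0109), at a threshold of 0.01 in limma. With the replicate number as a block, 19 fell and 1 rose, and 20 of the 27 calls were kept. Deviations of same-numbered samples correlated at -0.019, -0.016 and -0.12, and those of differently numbered samples at -0.10 to 0.11. These correlations cannot show whether same-numbered samples shared a culture or a day. The difference of Rtl1, 0.01, was reversed to -0.015 without control replicate 1, -0.055 without control replicate 3, -0.025 without overexpression replicate 1 and -0.0005 with array weights, and its highest value with 1 array left out was 0.1. The median of the 260 genes with a microRNA symbol elsewhere ranged from -0.084 to -0.046 when single arrays were left out, and was -0.0067 after centring, -0.024 after quantile normalization, and -0.11 and -0.097 without genes under the 30th percentile or under the median level. Leaving out their 4 host genes, a choice made after seeing the data, kept it at -0.053. The median of the microRNA maturation list ranged from -0.18 to -0.07 when single arrays were left out. The cause of these shifts was not tested. Over the 45 named genes, 121 of 686 comparisons with an alternative ended a call and 11 gained one. Low signals such as those of Mir376a and Mir376c cannot be separated from background without detection calls.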

Other observations

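Probe sets that name several genes were left out of the comparison, and 3 of them name only genes of the region. They were read in the fit with such probe sets added (limma, Benjamini-Hochberg). The 1 that names Mirg and Mir410 was at 5.94, 5.75 and 5.75 in control and at 4.84, 5.02 and 4.50 in overexpression (-1.03 ± 0.13, adjusted p = 0.00195). The annotated start of Mirg lies within the cluster from Mir379, downstream of many of its genes. The 1 that names AF357355 and Rian was at 8.94, 8.97 and 8.96 in control and at 8.69, 8.30 and 8.31 in overexpression (-0.52 ± 0.11, adjusted p = 0.0204). The 1 that names Mir433 and 6430411K18Rik was at 6.03, 6.17 and 6.16 in control and at 5.40, 5.72 and 5.73 in overexpression (-0.50 ± 0.10, adjusted p = 0.0185). All 3 fell, with no overlap between the groups.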
